A study of Mus musculus with 12 samples.

Results

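miR-21 is a small regulatory RNA of the mouse genome, measured here in embryonic fibroblasts with and without the endoplasmic reticulum (ER) stress sensor ATF6a. Its values were those of every array spot that was not a control and carried the name mmu-miR-21, which gave 2 probes of the 1857 on the array, A_54_P1307 and A_54_P1308, and 1 miRNA of 650. The probes are given separately and as the mean of their log2 values. The fibroblasts, on a C57BL/6 background, were ATF6aKO or ATF6aWT (KO and WT below), and each genotype was left untreated or exposed to 2 ug/mL tunicamycin for 12 or 24 h. The 6 groups were KO untreated, KO at 12 h, KO at 24 h, WT untreated, WT at 12 h and WT at 24 h, each with 2 arrays from independent experiments and 12 arrays in all. All cells shared the strain background, and the labels do not say how many embryos or cell lines the fibroblasts came from, so the p-values measure the spread between these arrays.

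As background, a miRNA is cut from a hairpin precursor and guides Argonaute proteins to messenger RNAs that pair with its seed, the bases near its 5′ end, which lowers the output of those messengers. miR-21 is abundant in fibroblasts and in many tumours, and among its known targets are Pdcd4 and Spry1, whose products restrain protein synthesis and growth factor signalling. In fibroblasts it is known for its part in TGF-beta responses and fibrosis. Tunicamycin blocks N-linked glycosylation, so that unfolded proteins collect in the ER, and ATF6a is one of the membrane proteins that sense this, being cut in the Golgi to release a transcription factor.

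The mature sequence that the probes are named for is given 5′ to 3′ from RefSeq on GRCm38.p6, with the seed (bases 2 to 8) in capitals. The other arm of its hairpin and another mouse miRNA with the same seed follow. Sequences that are alike outside the seed were not searched for. The probes' own sequences were not used here. Which bases each probe binds, and whether either also takes up miR-21c or another miRNA, was thus not tested. The array name mmu-miR-21 was matched to mmu-miR-21a-5p and the array name mmu-miR-21* to mmu-miR-21a-3p.
mmu-miR-21a-5p: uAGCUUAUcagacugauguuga
mmu-miR-21a-3p: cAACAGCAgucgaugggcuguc
mmu-miR-21c: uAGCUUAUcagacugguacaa
The 22-base miR-21a-5p lies on the minus strand at chr11:86584120-86584141, and miR-21a-3p, the other arm of the same hairpin, lies at chr11:86584082-86584103. The hairpin, at chr11:86584067-86584158, follows with the arms in capitals.
Mir21a hairpin: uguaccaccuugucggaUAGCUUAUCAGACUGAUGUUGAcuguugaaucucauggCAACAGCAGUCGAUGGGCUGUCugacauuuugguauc
The hairpin lies inside the span of the protein-coding gene Vmp1 (chr11:86583858-86683836), 209 bases from the lower end of that span. miR-21c, at chr8:128278188-128278208, shares the seed and the first 15 bases with miR-21a-5p, and no probe of that name was analysed here. The passenger arm miR-21* had 4 probes and was well above background, by the scanner software's own call, on 0 of 12 arrays, so no change is given for it.

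Each array carried 10 spots of each miR-21 probe, and both probes were well above background on all 12 arrays. No spot was saturated on any array. Processed signals were scaled by each array's 75th percentile, taken over the 87 probes that passed the background call on every array, and levels are log2 of that scaled intensity. Between 85 and 171 miRNAs were well above background per array, and 175 miRNAs (306 probes) entered the tests. Of 7 fibroblast and mesenchyme markers, miR-199a-3p, miR-199a-5p and miR-214 were well above background on all 12 arrays, miR-145 was on none and the other three were on 7 to 10. The markers of blood cells, epithelium, neurons, endothelium and liver were well above background on none, miR-206 of the muscle list was on 3 arrays and miR-294 of the pluripotent list on 2. Arrays for miRNAs do not measure the Atf6 messenger, so the genotypes were not checked. The untreated arrays shared one slide and the treated arrays a second one, and the effects of tunicamycin and of the slide cannot be told apart. On each slide the genotypes also sat in different rows, and the same holds for genotype and row.

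Before the levels are read, one feature of the spots matters. On the 12 h arrays many spots in the centre of the array were dim. The share of centre spots of the 87 bright probes that fell under 0.3 of their probe's median was 20% on KO 12 h replicate 1 and 4.83% on KO 12 h replicate 2. It was 47.9% (139 of 290 spots) on WT 12 h replicate 1 and 3.79% on WT 12 h replicate 2, and it was 0 on the other 8 arrays. Outside the centre at most 1 of 575 spots was that dim on any array. Of the 10 spots of A_54_P1307, 4 lie in the centre, and of those of A_54_P1308, 2 do. On WT 12 h replicate 1 the 10 spots of A_54_P1307 ran from 16.1 to 16077 intensity units, with a coefficient of variation of 67.4%, whereas on the other arrays that figure was between 2.94% and 14.6%. For A_54_P1308 it was between 4.34% and 15.5%, after the scanner software's outlier flags had removed its 2 lowest spots on WT 12 h replicate 1.

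**Figure D1:**
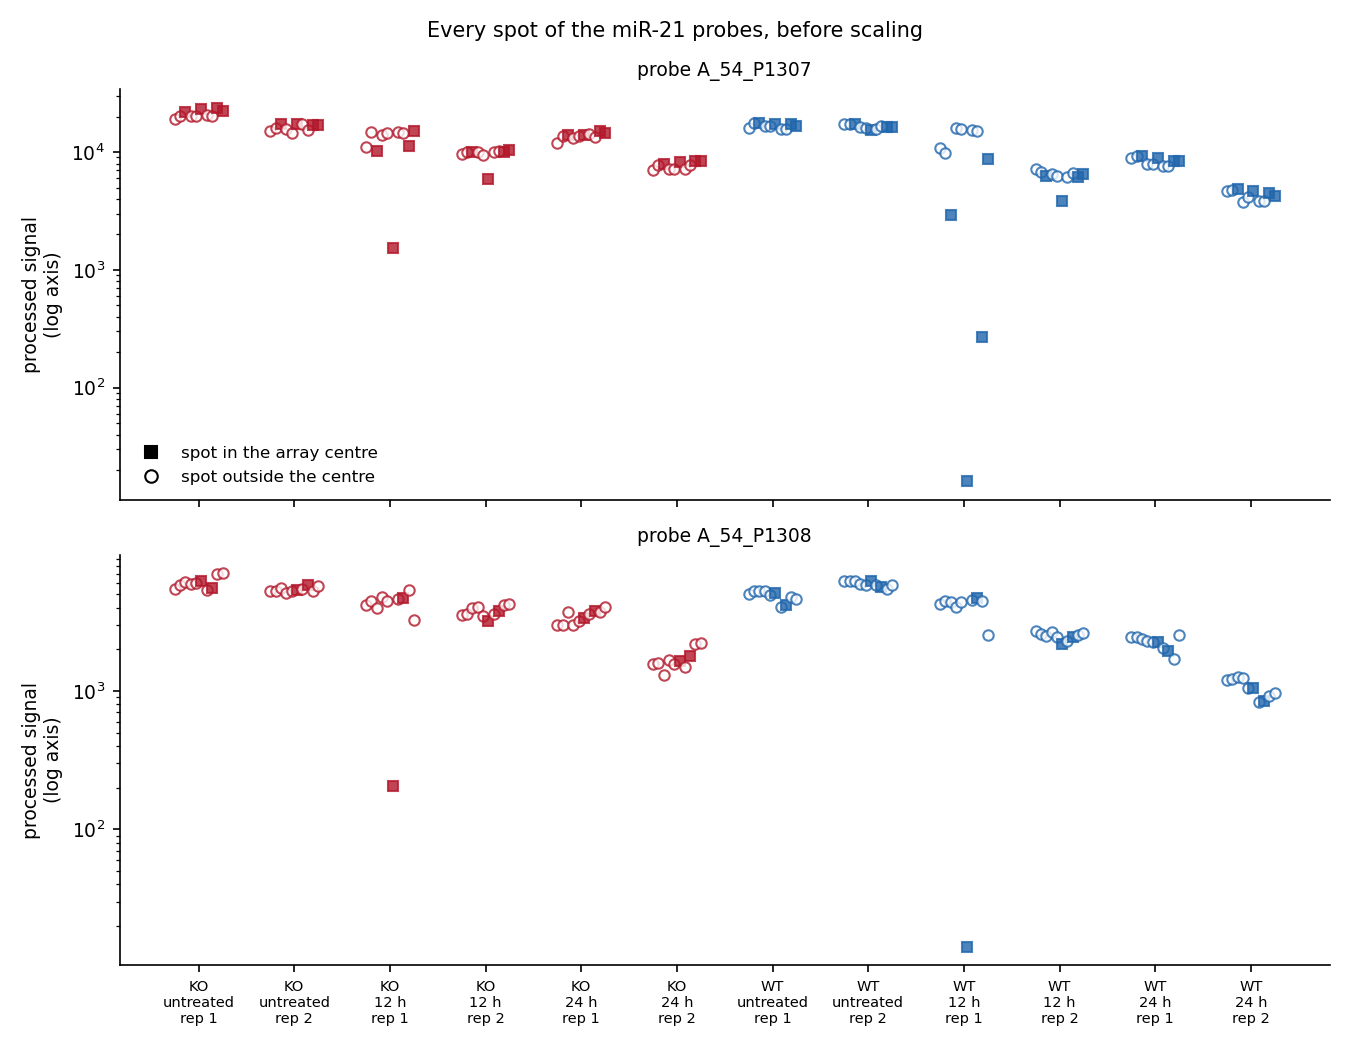
Processed signal (intensity, log axis) of each spot of the miR-21 probes on each of the 12 arrays, with KO arrays left of WT arrays, filled squares for spots in the array centre and open circles for the others, and outlier spots included. On WT 12 h replicate 1 the centre spots of A_54_P1307 reach down to 16.1 units while spots outside the centre reach 16077.

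miR-21 had a log2 scaled signal of 4.17 and 4.33 in the untreated KO arrays, 4.0 and 3.43 in KO at 12 h, and 3.84 and 3.56 in KO at 24 h (replicates 1 and 2). In WT it was 4.60 and 4.56 in untreated arrays, 3.51 and 3.59 at 12 h, and 3.51 and 3.60 at 24 h. All untreated arrays lay above all treated arrays of either genotype, and the untreated WT arrays were the highest of the 12. The group means were 4.25 ± 0.11 in untreated KO, 3.71 ± 0.40 in KO at 12 h and 3.70 ± 0.19 in KO at 24 h (SD, n = 2 each). In WT they were 4.58 ± 0.02 in untreated arrays, 3.55 ± 0.05 at 12 h and 3.56 ± 0.07 at 24 h. The order of means was thus untreated WT, untreated KO, KO at 12 h, KO at 24 h, WT at 24 h and WT at 12 h, and the arrays of the last 4 groups overlapped one another.

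**Figure D2:**
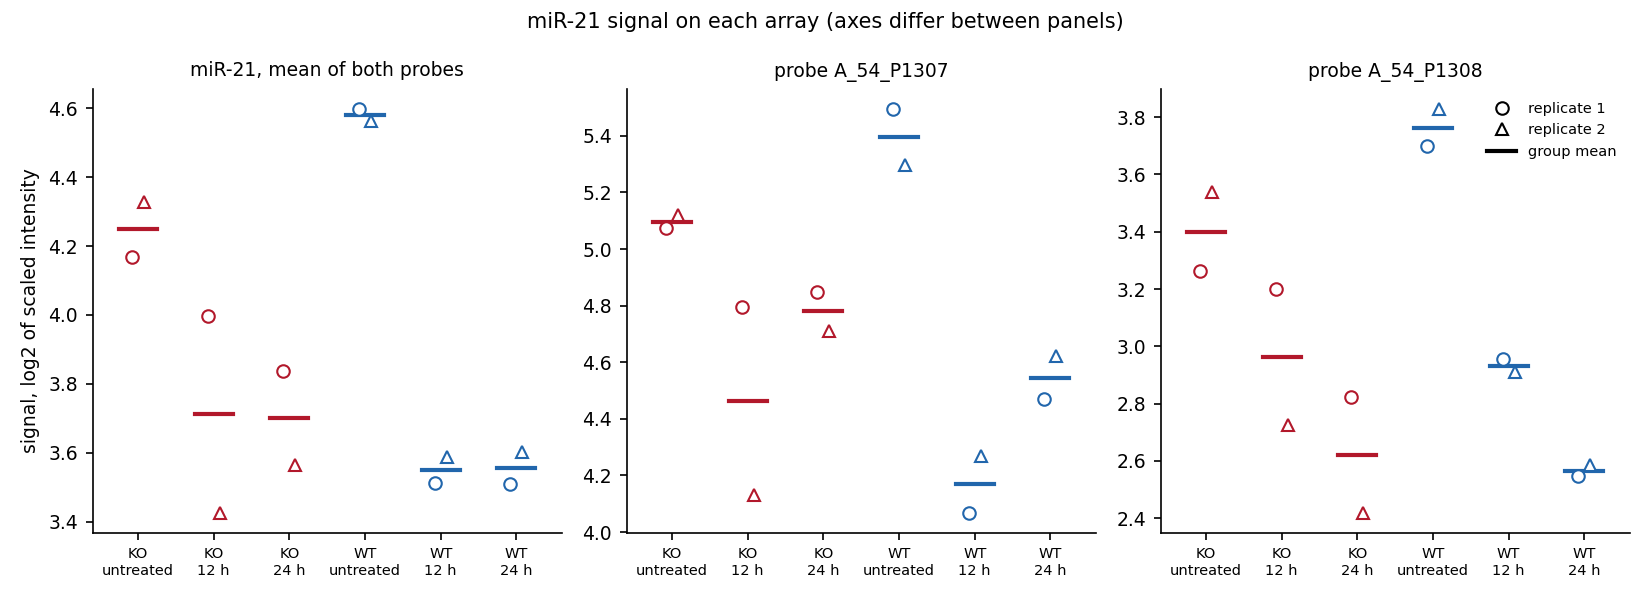
Log2 scaled signal of miR-21 on each of the 12 arrays as the mean of both probes (left), for A_54_P1307 (middle) and for A_54_P1308 (right), with circles for replicate 1, triangles for replicate 2 and bars for group means. In the left panel the untreated arrays sit between 4.17 and 4.60 and the treated arrays between 3.43 and 4.0; the axes of the panels differ.

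In KO fibroblasts the signal of miR-21 after tunicamycin lay below that of untreated cells on every array, but neither difference passed the test. At 12 h the levels were 4.0 and 3.43, against 4.17 and 4.33 in untreated KO cells, a log2 difference of -0.54 ± 0.18 (SE; 95% interval -0.97 to -0.11; ratio 0.690), with an adjusted p of 0.0916 in limma's moderated test with Benjamini-Hochberg adjustment over the 175 miRNAs. The groups did not overlap, as was so in the lower direction for 38.9% of the tested miRNAs, and 17.1% of them passed in either direction. Same-numbered treated and untreated arrays lay on different slides and shared no scanning run. Between them the difference was -0.17 for replicate 1 and -0.90 for replicate 2. At 24 h the levels were 3.84 and 3.56, against the same untreated cells, a difference of -0.55 ± 0.18 (95% interval -0.98 to -0.12; ratio 0.684; limma adjusted p = 0.0993), where 10.3% of miRNAs passed and 36.6% did not overlap in the lower direction. Without KO 12 h replicate 1 the 12 h difference was -0.82, and the 24 h difference was unchanged in size without either KO 12 h array. A test in such a fit would assume that the lone 12 h array varies like the other groups.

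In WT fibroblasts the signal of miR-21 fell at both times, by about 1 log2 unit. At 12 h the levels were 3.51 and 3.59, against 4.60 and 4.56 in untreated WT cells, a log2 difference of -1.03 ± 0.18 (95% interval -1.46 to -0.60; ratio 0.490, interval 0.364 to 0.661; limma adjusted p = 0.00338). At 24 h they were 3.51 and 3.60, and the difference was -1.02 ± 0.18 (95% interval -1.45 to -0.59; ratio 0.492; limma adjusted p = 0.00357). Both treated arrays lay below both untreated arrays at each time. Same-numbered arrays, which were not paired across slides, differed by -1.08 and -0.97 at 12 h and by -1.09 and -0.96 at 24 h. Such falls were common on these arrays. Of the 175 miRNAs 44.6% passed at 12 h and 41.1% at 24 h, and 55.4% and 51.4% did not overlap in the lower direction at those times. In RNA of whole cultures, fewer cells of a kind that holds much miR-21 and less miR-21 per cell cannot be told apart.

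The WT calls rested on how arrays were scaled. They were lost, with signals still lower in treated cells, without scaling between arrays (-0.88 and -1.63 at 12 and 24 h, limma adjusted p = 0.338 and 0.0524), when scaled on all probes (-1.70 and -0.88), and in the deposited log2 table (-0.97 and -1.52). Quantile normalization gave 0 at 12 h and -0.17 at 24 h, since it gives the brightest probe, A_54_P1307 on every array, one fixed value. With all centre spots left out on every array, a choice made after seeing the data, the WT differences were -0.93 ± 0.16 at 12 h (adjusted p by limma 0.00447) and -1.04 ± 0.16 at 24 h (0.00218), and those in KO cells were -0.56 (0.0541) and -0.59 (0.0563).

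The median over the tested miRNAs also differed from 0 in some comparisons, and the place of miR-21 among them is given for each as a description. These medians depend on the processing, and that of WT at 12 h was 0.47 in the deposited log2 table. In KO cells the median difference over the 175 miRNAs was -0.09 at 12 h, and miR-21 lay 0.45 below it in log2 units, with 29 miRNAs lower than miR-21. At 24 h the median in KO cells was close to 0, miR-21 lay 0.55 below it, and 20 miRNAs were lower. In WT cells the median was -0.27 at 12 h and -0.21 at 24 h. miR-21 lay 0.76 and 0.81 below it at those times, and 20 and 16 miRNAs were lower than miR-21.

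**Figure D3:**
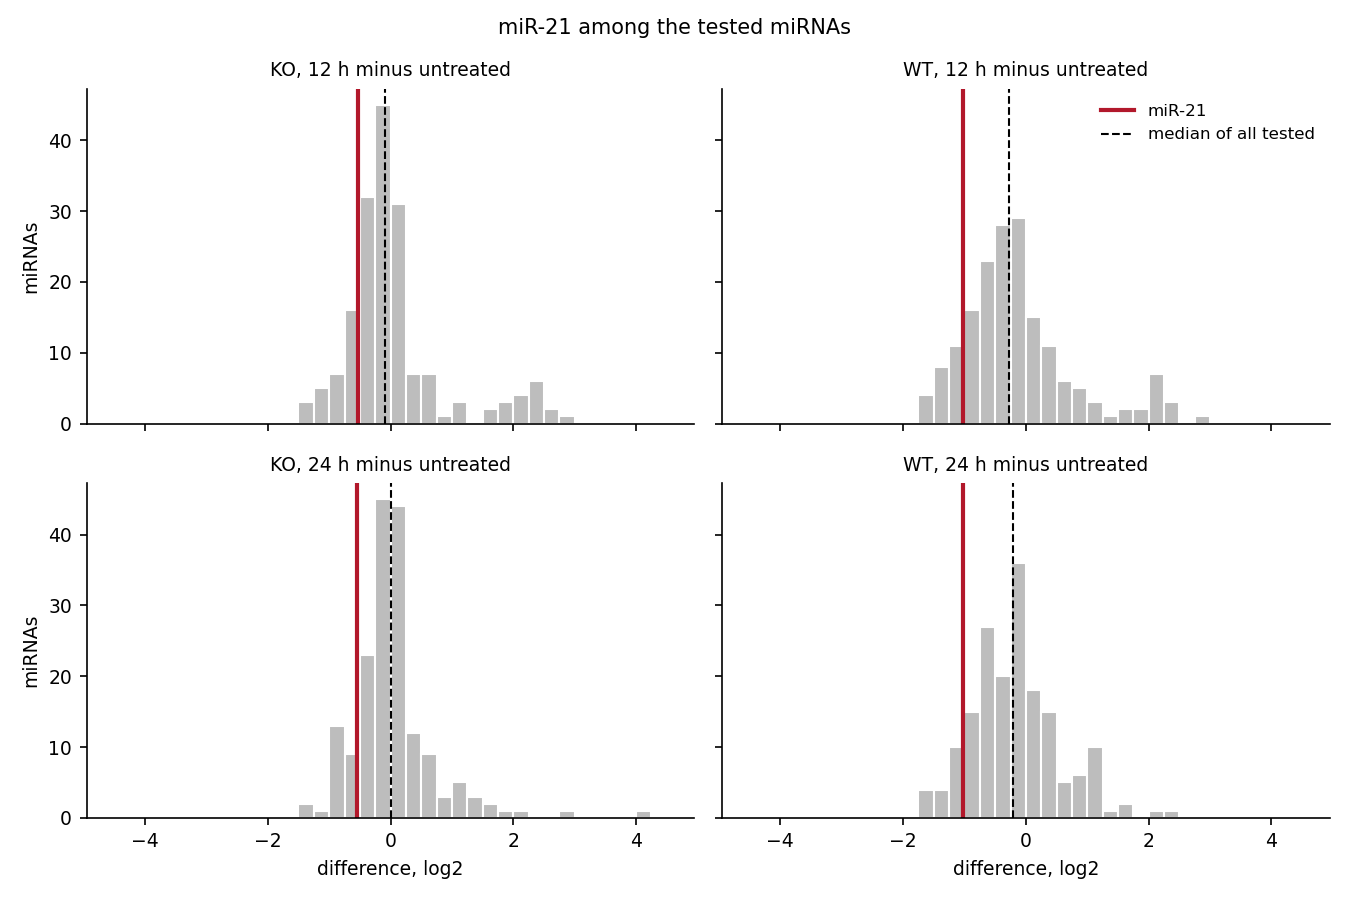
Histograms of the log2 difference between treated and untreated cells over the 175 tested miRNAs, with KO panels left of WT panels and 12 h above 24 h; the solid line is miR-21 and the dashed line the median of all tested miRNAs. The solid line lies left of the dashed line in each panel, by 0.45 to 0.81 log2 units.

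Both probes were lower after tunicamycin in both genotypes, and 1 of the KO differences and every WT difference passed. A_54_P1307 had log2 levels of 4.80 and 4.13 in KO at 12 h and 4.85 and 4.71 in KO at 24 h, against 5.07 and 5.12 in untreated KO cells. Its treated KO arrays were below the untreated ones at both times, by 0.63 ± 0.21 (limma adjusted p over 306 probes 0.086) and 0.32 ± 0.21 (0.462) on the log2 scale. A_54_P1308 had 3.20 and 2.72 in KO at 12 h and 2.82 and 2.42 in KO at 24 h, against 3.26 and 3.54 in untreated KO cells. Its difference was -0.44 ± 0.19 at 12 h (adjusted p by limma 0.194) and -0.78 ± 0.19 at 24 h (0.043), the only KO difference of either probe that passed, where 12.1% of probes passed at 24 h and 15.4% at 12 h. The groups did not overlap for either probe, as was so in the lower direction for 36.9% of probes at 12 h and 33.7% at 24 h. That call is close to the threshold and was lost under 9 of 14 alternatives and in 9 of the 12 fits without one array.

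In WT cells A_54_P1307 had 4.07 and 4.27 at 12 h and 4.47 and 4.62 at 24 h, against 5.49 and 5.30 in untreated cells. Its differences were -1.23 ± 0.21 at 12 h (adjusted p by limma 0.00358) and -0.85 ± 0.21 at 24 h (0.015). A_54_P1308 had 2.96 and 2.91 at 12 h and 2.55 and 2.58 at 24 h, against 3.70 and 3.83 in untreated cells. Its differences were -0.83 ± 0.19 at 12 h (adjusted p by limma 0.0118) and -1.20 ± 0.19 at 24 h (0.00314). Both probes fell at both times in WT cells, where 41.2% of probes passed at 12 h and 38.6% at 24 h, and no treated array overlapped the untreated ones, as was so in the lower direction for 53.3% and 50% of probes. The fall of A_54_P1308 at 12 h lost its call under 5 of 14 alternatives and without WT untreated replicate 1, WT untreated replicate 2 or WT 12 h replicate 2 (limma adjusted p up to 0.0719). That of A_54_P1307 at 24 h lost it under 3 of 14 and without WT untreated replicate 1 or WT 24 h replicate 1 (up to 0.0989). With the array centre left out, the 12 h difference of A_54_P1307 was -0.97 and that of A_54_P1308 was -0.88.

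The probes ordered the 2 treatment times in opposite ways. For A_54_P1307 the signal at 24 h minus that at 12 h was 0.05 and 0.58 in KO cells and 0.40 and 0.35 in WT cells (replicates 1 and 2). For A_54_P1308 it was -0.38 and -0.30 in KO cells and -0.41 and -0.32 in WT cells. All 4 differences, with centre spots included, were thus above 0 for the first probe and below 0 for the second. Over both genotypes they averaged 0.35 ± 0.15 for A_54_P1307 (limma adjusted p = 0.24) and -0.35 ± 0.14 for A_54_P1308 (limma adjusted p = 0.197), and neither passed after adjustment, where 5.88% of probes did. In the mean of both probes they cancelled, and miR-21 at 24 h minus 12 h was -0.0033 ± 0.13 (95% interval -0.31 to 0.30; limma adjusted p = 1), where 8% of miRNAs passed. With the array centre left out the difference was 0.18 for A_54_P1307 and -0.32 for A_54_P1308. The 0.40 of A_54_P1307 in WT replicate 1 rests on the 12 h array with the most dim spots. Its mean there before scaling was 9517 units over the kept spots and 13863 over those outside the centre, against 8430 and 8195 at 24 h. Whether that difference stays above 0 without the centre was not tested. Without KO 12 h replicate 1, which leaves a lone array in that group, the 24 h minus 12 h difference was 0.51 for A_54_P1307 and 0.14 for the mean of both probes. The difference between the probes was not tested.

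The genotypes were compared at each condition. In untreated cells miR-21 had 4.17 and 4.33 in KO arrays, against 4.60 and 4.56 in WT arrays, so both KO arrays lay below both WT arrays, as was so for 48.6% of miRNAs. The difference was -0.33 ± 0.18 (95% interval -0.76 to 0.10; limma adjusted p = 0.254), whereas 28% of miRNAs passed. Within the scanning runs, each of which held both genotypes, it was -0.43 in the first run and -0.23 in the second. Its direction depends on the scaling, since it was 0.13 without scaling between arrays. In a fit of those 4 arrays alone the limma adjusted p was 0.0352, and 54.3% of miRNAs passed. The p of the main fit uses a spread shared with the treated arrays. For miR-21 the SD between replicates was 0.40 in KO at 12 h and 0.19 in KO at 24 h. It was 0.05 and 0.07 in WT at those times, against 0.11 in untreated KO and 0.02 in untreated WT.

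After tunicamycin the genotypes overlapped. At 12 h the levels were 4.0 and 3.43 in KO cells, against 3.51 and 3.59 in WT cells, a difference of 0.16 ± 0.18 (95% interval -0.27 to 0.59; limma adjusted p = 0.817), where 7.43% of miRNAs passed. The runs differed in sign, with 0.49 for replicate 1 and -0.16 for replicate 2, and without KO 12 h replicate 1 the difference was -0.12. At 24 h the levels were 3.84 and 3.56 in KO cells, against 3.51 and 3.60 in WT cells, a difference of 0.14 ± 0.18 (95% interval -0.29 to 0.58; limma adjusted p = 0.810), where 9.71% passed, with 0.33 and -0.04 in the runs.

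Both probes placed untreated KO cells below untreated WT cells, without passing. A_54_P1307 had 5.07 and 5.12 in KO cells, against 5.49 and 5.30 in WT cells, a difference of -0.30 ± 0.21 (limma adjusted p = 0.392). A_54_P1308 had 3.26 and 3.54 in KO cells, against 3.70 and 3.83 in WT cells, a difference of -0.36 ± 0.19 (0.257), where 26.8% of probes passed. Neither probe overlapped between the untreated genotypes, as was so in that direction for 46.1% of probes. After tunicamycin the differences were 0.29 ± 0.21 at 12 h and 0.23 ± 0.21 at 24 h for A_54_P1307 (limma adjusted p = 0.604 and 0.72), and 0.03 ± 0.19 and 0.06 ± 0.19 for A_54_P1308 (1 at both times), where 6.54% and 7.52% of probes passed. At 24 h the KO levels of A_54_P1307, 4.85 and 4.71, lay above the WT levels, 4.47 and 4.62, as was so for 18.6% of probes, and in the other 3 of these comparisons the genotypes overlapped. Without KO 12 h replicate 2 the 12 h difference of A_54_P1307 was 0.63, and without KO 12 h replicate 1 it was -0.040.

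Whether ATF6a changes the response of miR-21 is asked by the response in KO cells minus that in WT cells. This was 0.49 ± 0.26 at 12 h (95% interval -0.12 to 1.1; limma adjusted p = 0.315) and 0.48 ± 0.26 at 24 h (95% interval -0.13 to 1.09; 0.310), where 9.71% and 13.1% of miRNAs passed at those times. The positive sign means a smaller fall in KO cells, and the intervals include 0 and reach differences as large as the WT fall itself. Scaled on all probes, the values turned to -0.23 and -0.41. By array number, which does not pair arrays across the slides, the values were 0.91 and 0.07 at 12 h and 0.76 and 0.20 at 24 h. A fall that passed in WT cells and not in KO cells is therefore not shown to differ between them. Without KO 12 h replicate 2 the 12 h value was 0.78, and with the array centre left out it was 0.37 (limma adjusted p = 0.471). By probe the responses differed by 0.59 ± 0.29 and 0.53 ± 0.29 for A_54_P1307 at 12 and 24 h (limma adjusted p = 0.315 and 0.354), and by 0.39 ± 0.27 and 0.42 ± 0.27 for A_54_P1308 (0.509 and 0.425), where 10.1% and 12.4% of probes passed.

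**Figure D4:**
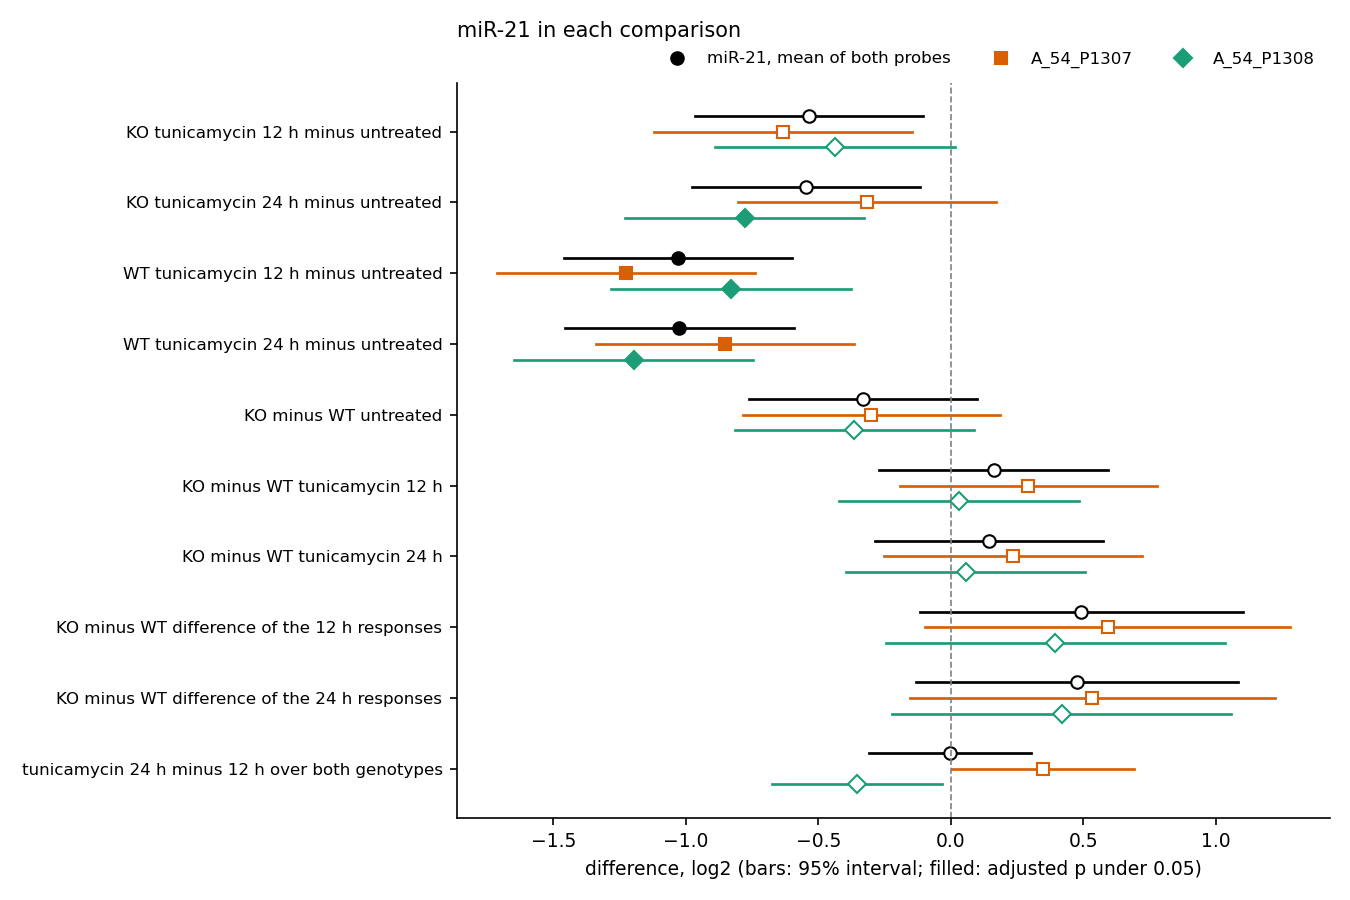
Log2 difference (points) with its 95% interval (bars) for miR-21 and each of its probes in the 10 comparisons; filled points have a limma adjusted p under 0.05. In the WT comparisons with untreated cells all points are filled, and in the KO ones only A_54_P1308 at 24 h, at -0.78, is.

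Among the 30 other miRNAs with every tested probe well above background on all 12 arrays, 5 had levels most like those of miR-21. Likeness was taken by Pearson's r over the 12 arrays. The points share the arrays and the scaling, and the 12 arrays form treated and untreated groups, so r is a description. let-7i, of the let-7 family that holds back growth genes, had r = 0.96 (Spearman's rho 0.92). miR-199a-3p, made in mesenchyme from the Dnm3os transcript, had r = 0.89 (rho 0.93), and miR-214, from the same transcript, had r = 0.81 (rho 0.66). miR-130a had r = 0.87 (rho 0.83), and miR-125b-5p, a relative of the worm miRNA lin-4, had r = 0.86 (rho 0.76). Without both untreated WT arrays, the farthest from the median, r was 0.92 for let-7i, 0.93 for miR-199a-3p, 0.79 for miR-214, 0.69 for miR-130a and 0.83 for miR-125b-5p. The median r over the 30 candidates was 0.0306 and the lowest was -0.81.

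These miRNAs were picked for their likeness to miR-21 on the same arrays, so their falls are a description and no separate support. Of all tested miRNAs 14.3% fell past the threshold at 12 h and 8% at 24 h in KO cells, and 38.3% and 33.7% in WT cells. let-7i fell in both genotypes, by 1.00 ± 0.14 at 12 h and 0.77 ± 0.14 at 24 h in KO cells and by 1.34 ± 0.14 and 1.12 ± 0.14 at those times in WT cells (limma adjusted p 0.00301, 0.0107, 0.000378 and 0.000849). miR-199a-3p fell by 1.18 ± 0.14 and 1.06 ± 0.14 in KO cells and by 0.89 ± 0.14 and 0.85 ± 0.14 in WT cells (limma adjusted p 0.0018, 0.00284, 0.00224 and 0.00284). For both of them the fall passed in KO cells, where that of miR-21 did not. miR-214, given below, also passed in KO cells at each time. miR-130a passed there only at the earlier time, with -0.70 ± 0.19 and then -0.35 ± 0.19 (adjusted p by limma 0.0475, then 0.317). miR-125b-5p, like miR-21, passed at neither KO time, with -0.61 ± 0.24 and then -0.88 ± 0.24 (0.147, then 0.0694). The difference between these miRNAs was not tested.

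miR-21 was also read within a list of 12 miRNAs known from fibroblast activation and fibrosis, of which 11 were tested. In KO cells 4 of the 11 fell and none rose at 12 h, with a list median of -0.54 against -0.09 over all tested miRNAs, and 4 fell and none rose at 24 h, with a median of -0.55. The members with the largest KO falls were miR-199a-5p, with differences of -1.35 ± 0.23 (12 h, limma adjusted p = 0.00916) and -1.39 ± 0.23 (24 h, 0.00952), and miR-214, with -1.29 ± 0.19 (12 h, 0.0035) and -1.41 ± 0.19 (24 h, 0.00284). The falls covered 14.3% of all tested miRNAs at 12 h and 8% at 24 h in KO cells, and 38.3% and 33.7% at those times in WT cells. In WT cells 7 fell and none rose at each time, miR-21 among them, with list medians of -0.65 at 12 h and -0.83 at 24 h.

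The largest WT fall of the list was that of miR-143, a miRNA of smooth muscle and mesenchyme, with differences of -1.30 ± 0.27 (12 h, limma adjusted p = 0.0068) and -1.50 ± 0.27 (24 h, 0.00371), followed at 12 h by miR-21 and at 24 h by miR-199a-5p at -1.26 ± 0.23 (0.00426). One of the members counted in each of the 4 comparisons, miR-222, was at the floor of the scale, -5.02, on every treated array, so its fall has only a bound. The miR-29 members, which repress collagen messengers, passed in none of the 4. Without KO 12 h replicate 1, 10 members passed at 12 h and 7 at 24 h in KO cells, where 41.1% and 18.3% of all tested miRNAs then passed in either direction. Without KO 12 h replicate 2 the 24 h count was also 7, with 18.3% of all. Without WT untreated replicate 2, 4 members passed at 12 h in WT cells, with 33.7% of all. Without scaling between arrays 1 member passed at each time in KO cells, with 4% and 5.14% of all, and 0 at 12 h and 1 at 24 h in WT cells, with 2.29% and 14.3% of all.

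A second list held 23 miRNAs tied in the literature to the unfolded protein response, 15 of them tested, and does not include miR-21. In KO cells 4 of the 15 fell and none rose at 12 h, and 3 fell and none rose at 24 h, where 14.3% and 8% of all tested miRNAs fell, led by miR-199a-5p and miR-214, which stand in both lists. In WT cells 4 of the 15 fell and none rose at 12 h, where 38.3% of all tested miRNAs fell. miR-199a-5p then fell by 1.0 ± 0.23 (limma adjusted p = 0.0104) and miR-34a by 0.88 ± 0.10 (0.000753) on the log2 scale. At 24 h 5 of the 15 fell and 2 rose in WT cells, where 33.7% of all tested miRNAs fell and 7.43% rose. The list's shares of falls in WT cells were thus no higher than those of all tested miRNAs. Beside miR-199a-5p, given above, miR-125b-5p was then at -1.03 ± 0.24 (limma adjusted p = 0.0118), and the risers were miR-23a at 0.55 ± 0.17 (0.0324) and miR-96 at 0.41 ± 0.10 (0.0104). The list medians were -0.39 and -0.01 in KO cells and -0.37 and -0.30 in WT cells at 12 and 24 h. The counts of falls moved when single arrays were left out, and so did the share of all tested miRNAs that passed. The 2 WT rises at 24 h did not hold in every fit without one array, and they numbered 0 to 3 over the 17 alternatives.

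Between the genotypes at most 2 members of either list passed in a comparison, of 11 and 15 tested. Of all tested miRNAs 28% passed in untreated cells, 7.43% at 12 h and 9.71% at 24 h. miR-96 was lower in KO cells, with differences of -0.69 ± 0.10 in untreated cells (adjusted p by limma 0.00145), -0.87 ± 0.10 at 12 h (0.00204) and -1.03 ± 0.10 at 24 h (0.000608). miR-155, a miRNA of immune cells that is also found in fibroblasts, was at -0.94 ± 0.15 in untreated KO minus WT cells (limma adjusted p = 0.00272) and at -0.69 ± 0.15 at 12 h (0.0355), where one of its probes was at the floor on 2 of the 4 arrays. miR-34a was higher in KO cells at 12 h, by 0.48 ± 0.10 (limma adjusted p = 0.0355). miR-222 was higher in untreated KO cells, by 0.62 ± 0.07 (0.000921), with one of its probes at the floor on 2 of the 4 arrays, and its responses, which rest on the floor, have only a bound. Over both genotypes miR-34a and miR-96 were higher at 24 h than at 12 h, by 0.42 ± 0.07 and 0.35 ± 0.07 (limma adjusted p = 0.0161 and 0.0217), where 8% of miRNAs passed. Without scaling between arrays 0 of the 175 miRNAs passed between untreated genotypes, 2 at 12 h and 0 at 24 h (limma, with 18, 12 and 10 at an unadjusted p under 0.05).

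**Figure D5:**
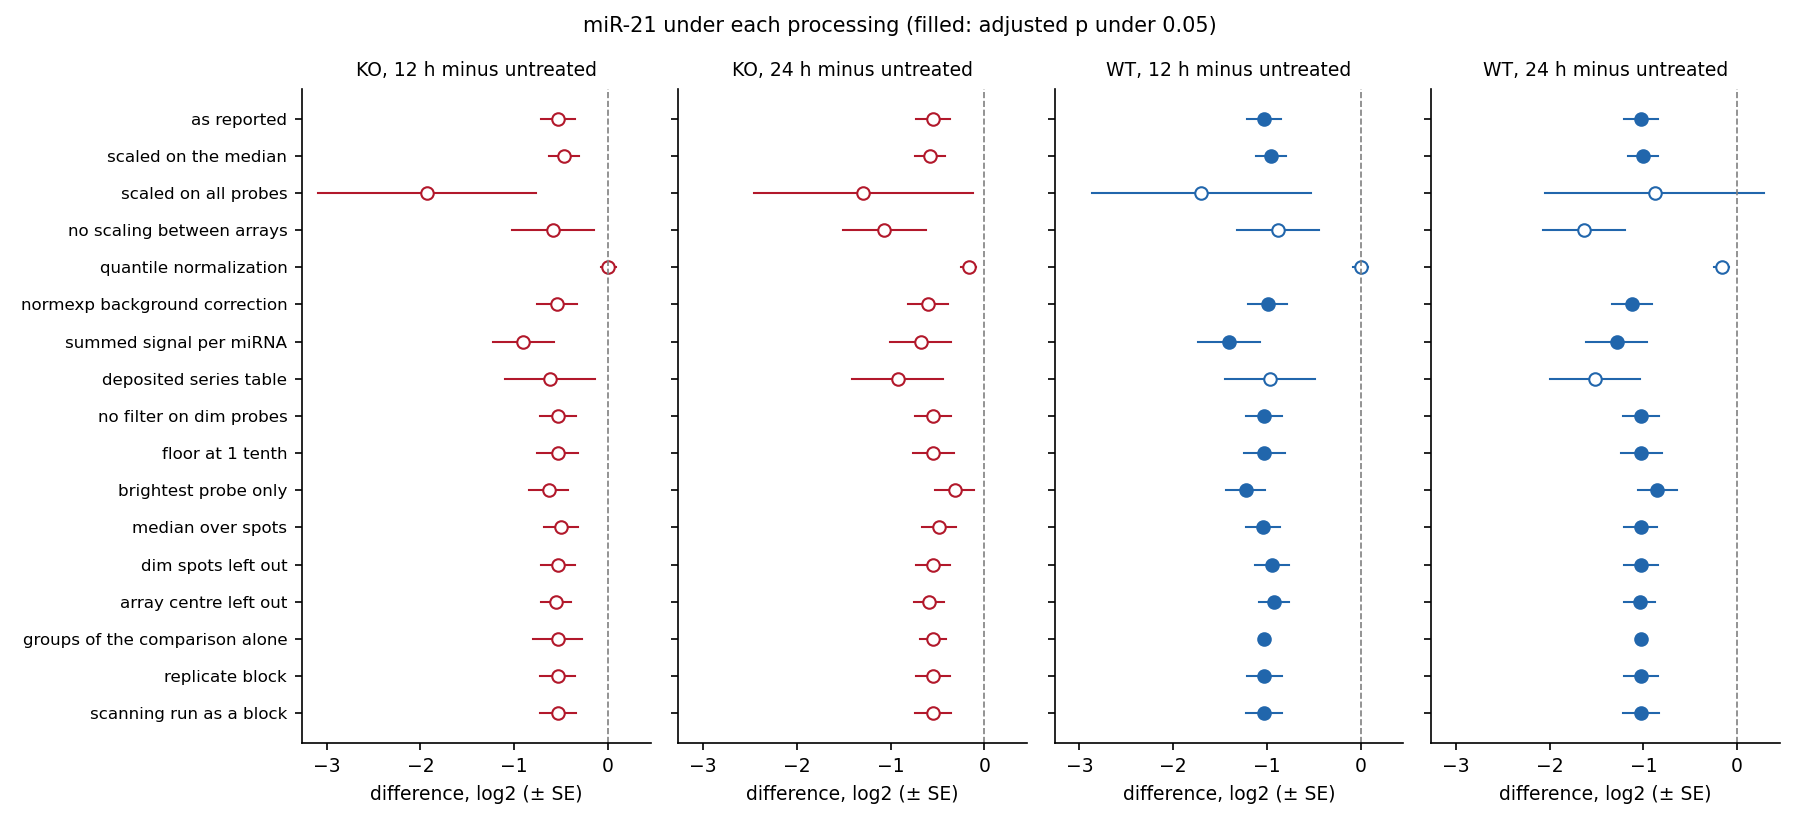
Log2 difference between treated and untreated cells for miR-21 (points, with SE bars) under the reported processing and 16 alternatives, KO panels left of WT panels; filled points have a limma adjusted p under 0.05. In WT cells 13 of the points shown are filled at each time, and quantile normalization places both 12 h values at 0.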

How the data were processed

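Total RNA of 12 fibroblast cultures was labelled with Cy3 and hybridised to 1-colour Agilent mouse miRNA arrays, per the labels' protocols. Per the submitters' processing notes the scanner software was Agilent Feature Extraction, version 10.7.1.1. The authors deposited its output, whose processed signal is a background-subtracted intensity per the file headers. They also deposited a table of log2 values, which matches the logarithm of that software's summed signal for a miRNA within 1.54e-06 and has no scaling between arrays.

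Control and outlier-flagged spots were left out, spots were averaged per probe, and each array's signals were scaled by their 75th percentile, computed from the 87 probes called above background on every array (176.5 to 630.5 intensity units). Values under 0.0309 were set to that floor before log2. A miRNA's value averaged those of its probes for which 1 group or more had both arrays above background. limma 3.58.1 (R 4.3.3) fitted 6 group means to 12 arrays with a shared spread (6 residual and 1.16 prior degrees of freedom), two-sided, with p-values adjusted by Benjamini and Hochberg's method inside each of the 10 comparisons, at a threshold of 0.05. Same-numbered arrays of one slide were scanned in one run, per the file headers, and their deviations from the group means correlated in all 7 pairs of groups (r 0.74 to 0.94), so they are paired within a slide. In the 8 pairs of groups on different slides, which share no run, r was -0.66 to -0.45. The shared spread pools groups whose replicates differed to unequal degrees. Over the tested miRNAs the SD of replicate 1 minus replicate 2 was 0.20 in untreated WT and 0.21 in untreated KO. It was 1.12 in WT and 1.19 in KO at 12 h, and 0.71 in WT and 0.80 in KO at 24 h. An exact permutation test of 2 arrays against 2 cannot go below p = 0.333. The fit was also run on simulated data with independent errors and the same spread in every group. These arrays differ on both points, so that run is no check of the p-values given here. The number of arrays limits the precision.

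miR-21, its lists and its tests were chosen with earlier results of these data known. The text names miR-21 and its probes in every comparison, its other arm, miRNAs of the same seed, the 5 miRNAs with the highest r, and from each list the 2 largest rises and falls past the threshold in a comparison. Alternatives changed the scaling, background correction, floor, filter, probe and spot summaries, blocks and arrays. The normexp alternative used the median spot signal. Sequences and Vmp1 come from RefSeq tables on GRCm38.p6.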

Additional observations from a re-analysis of the deposited data

How the results depend on the processing

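The falls of miR-21 in WT cells passed under 13 of 17 alternatives at each time and in all 12 fits without one array (limma adjusted p 0.000446 to 0.0258 at 12 h and 0.000502 to 0.0293 at 24 h). They missed the threshold in the same direction, at 12 and 24 h, when arrays were scaled on all probes (-1.70 and -0.88), with no scaling (-0.88 and -1.63) and in the deposited log2 table (-0.97 and -1.52). Scaling on all probes divides by at most 22.9 intensity units per array. Of the changes to the scaling, only that to the median kept both WT calls. The blocks, the lower floor, the lack of a filter and the fit of the groups alone left the difference at its reported size by construction. They could move only its p-value. Quantile normalization gave 0 and -0.17. A_54_P1307 was the brightest probe on every array and A_54_P1308 ranked 2 to 4, so quantile normalization gives the first probe the same value on every array by construction. Relative to the median of all tested miRNAs, miR-21 in WT cells lay between -1.44 and 0.42 at 12 h over the alternatives. The numbers of miRNAs called also moved widely, between 0 and 94 for WT at 12 h. The cause was not tested.

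Without both 12 h replicate 1 arrays, which leaves a lone array in each 12 h group, the KO falls were -0.82 at 12 h and -0.55 at 24 h. Without one array they ranged from -0.82 to -0.25 at 12 h and from -0.68 to -0.41 at 24 h. KO minus WT in untreated cells passed at -0.33 in a fit of its groups alone, where 54.3% of all tested miRNAs passed. It turned to 0.12 scaled on all probes, 0.13 with no scaling and 0.15 in the deposited table, and to 0.15 and 0.16 for A_54_P1307 and 0.083 and 0.095 for A_54_P1308 under the first pair of these. At 12 h KO minus WT turned to -0.11 scaled on all probes and -0.16 without both replicate 1 arrays (A_54_P1307 -0.14; A_54_P1308 -0.24 and -0.18, and -0.040 scaled on the median). Without one array it ranged from -0.12 to 0.45 (A_54_P1307 -0.040 to 0.63; A_54_P1308 -0.21 to 0.27). At 24 h it turned to -0.29 scaled on all probes (A_54_P1307 -0.20; A_54_P1308 -0.38, and -0.056 scaled on the median), and A_54_P1308 ranged from -0.15 to 0.26 without one array.

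Scaled on all probes, the KO minus WT difference of the responses turned to -0.23 at 12 h and -0.41 at 24 h (A_54_P1307 -0.13 and -0.35; A_54_P1308 -0.33 and -0.47). Without one array it ranged from 0.21 to 0.78 at 12 h. The 24 h minus 12 h difference turned to 0.73 scaled on all probes, 0.17 with the summed signal, 0.35 with the brightest probe, 0.016 with the median over spots and 0.12 without both replicate 1 arrays, and ranged from -0.15 to 0.14 without one array. It turned to -0.27 for A_54_P1307 with no scaling and 0.38 for A_54_P1308 scaled on all probes. Of 20 probe tests 5 passed, against 0 scaled on all probes, with no scaling or with quantile normalization, 3 with normexp or with no filter, 8 without both replicate 1 arrays, and 2 to 8 without one array. The r of miR-130a turned to -0.11 under quantile normalization.

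With the replicate block the limma adjusted p was 0.00518 and 0.00519 for the WT falls and 0.1 and 0.114 for the KO ones, and 4 probe tests passed, A_54_P1308 in KO at 24 h losing its call (0.0556). With the scanning run as a block, which pairs same-numbered arrays within a slide, the limma adjusted p was 0.00408 and 0.0042 for the WT falls and 0.0987 and 0.116 for the KO ones, 0.248, 0.681 and 0.752 for KO minus WT in untreated cells, at 12 h and at 24 h, and 0.278 and 0.274 for the responses, and no call on miR-21 or its probes changed. That block was a random effect in the comparisons across slides. A slide block could not be fitted, since the slides hold the treated and untreated groups.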
